A study of Mus musculus with 4 samples.

Results

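Endothelin, nitric oxide and prostacyclin set the tone of the pulmonary vessels, and the 10 genes described here carry most of the steps of these pathways: Edn1 (endothelin-1), Ece1 (the enzyme that cuts its precursor), Ednra and Ednrb (its receptors), Nos3 (endothelial nitric oxide synthase), Gucy1a1 and Gucy1b1 (the subunits of soluble guanylate cyclase), Prkg1 (cGMP-dependent protein kinase), Ptgis (prostacyclin synthase) and Ptgir (the prostacyclin receptor). They were taken by symbol from the 32285 genes counted, and all 10 were found. The data are single-nucleus RNA-Seq of 4 lungs, from 2 WT mice (strain given as C57/BL6J) and 2 VEcad-TRF2DN-Tg mice. The methods give 8 to 9 weeks as the usual age of mice in experiments. They do not say whether this was before or after the hypoxia. The VE-cadherin promoter of the Tg mice drives TRF2, a telomere-binding protein, in a dominant-negative form in endothelial cells (ECs), and the paper describes both genotypes as kept in chronic hypoxia, so that no sample in normal air stands beside them. Nothing in the labels says that the 2 replicates of a genotype share or differ in litter or day, and the p-values measure the spread between these 4 lungs.

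Endothelin-1 is made mainly by ECs and released towards the underlying cells, where the ETA receptor (Ednra) drives contraction. The ETB receptor (Ednrb) on ECs clears the peptide and raises nitric oxide release. Nitric oxide and prostacyclin act in the other direction: nitric oxide binds soluble guanylate cyclase in mural cells, cGMP then activates the kinase encoded by Prkg1, and prostacyclin acts through Ptgir and cAMP. All 3 pathways are drug targets in pulmonary hypertension.

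The matrices were unfiltered and held much RNA free in solution, so that each level was set beside that of empty droplets of the same mouse (barcodes with 300 to 800 UMIs). Between 125261739 and 182014706 UMIs were counted per mouse, and 25269 to 44000 barcodes held 1500 or more UMIs. Of these, 3991 (WT 1), 5551 (WT 2), 10744 (Tg 1) and 13592 (Tg 2) were named from marker genes, none of them among the 10. The classes are called by the cell type whose markers they hold ("pericyte-like", shortened below to pericytes), and they are not the annotation of the study. In the ECs, 18 of 19 endothelial markers exceeded the empty droplets in every mouse, as did 12 of 15 markers in pericytes. Fewer did in aerocytes (5 of 8), arterial ECs (5 of 9), venous ECs (6 of 9), AT1 nuclei (8 of 12, alveolar type 1), alveolar macrophages (5 of 10) and monocytes and interstitial macrophages (7 of 12), and venous ECs and AT1 nuclei had 1 marker of their own each among their 10 leading genes. For arterial ECs, a second method, the nearest class profile, gave 47.9% to 71.4% of them the same name. The libraries also differed by genotype in ways that touch every genotype difference below, and their part in those was not tested. Free RNA was estimated to give 42.1%, 43.7%, 32.8% and 34.9% of the UMIs of ECs (WT 1, WT 2, Tg 1 and Tg 2), mitochondrial genes gave 0.0828%, 0.13%, 0.321% and 0.383% of the UMIs of barcodes with 1500 or more, and 84.7%, 84.8%, 55.1% and 67.1% of these barcodes stayed without a name. Between 176 and 475 barcodes were shared by any 2 libraries, at most 1.3% of either. Levels are given as counts per 1e+06 UMIs of the class (CPM), in the order WT 1, WT 2, Tg 1 and Tg 2. Genes differ in length and in introns, so that levels are compared between classes and not between genes.

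**Figure D1:**
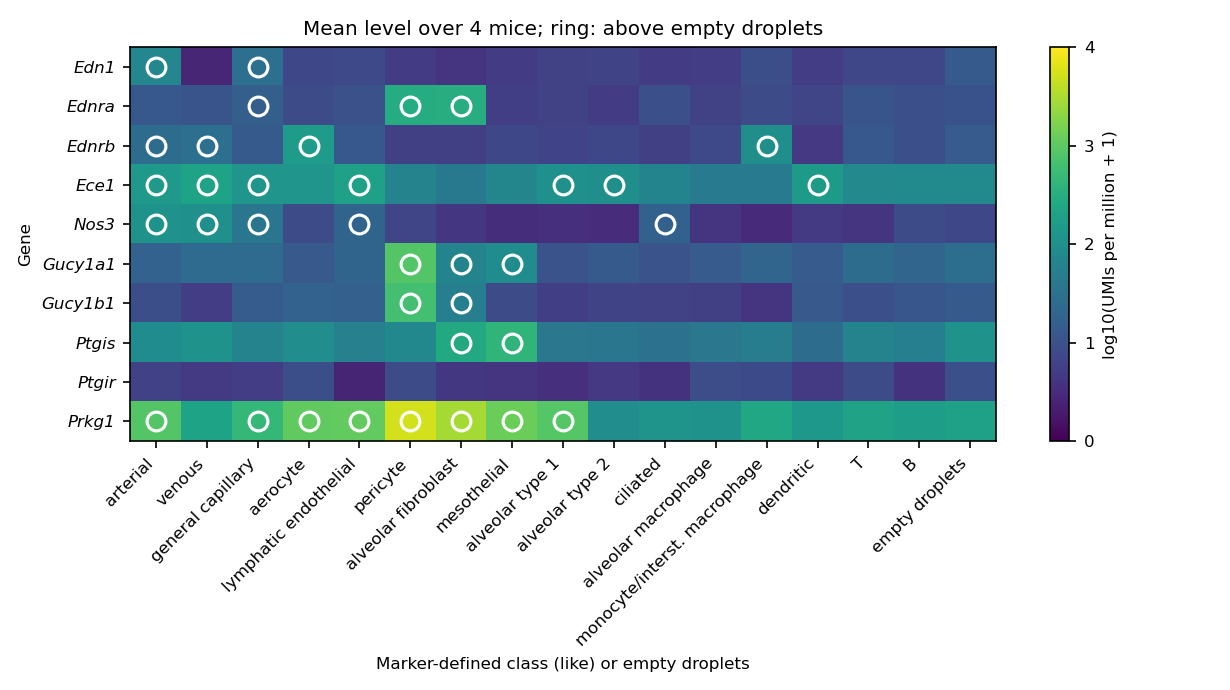
Mean level of the 10 genes (rows) in 16 marker-defined classes and in empty droplets (columns), as log10 of CPM + 1 averaged over the 4 mice. White rings mark classes above the empty droplets (edgeR, adjusted p at most 0.05): Ednra, Gucy1a1, Gucy1b1 and Prkg1 are ringed in pericytes and alveolar fibroblasts, Nos3 in ciliated nuclei and in ECs of every class but aerocytes, and Ptgir in no class.

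Edn1 (chr13:42301476-42307990, plus strand, mm10), the ligand, was highest in arterial ECs. Its level there was 65.2, 52.4, 61.4 and 101.5 CPM, against 18.0, 8.40, 14.0 and 10.3 CPM in empty droplets. The range lay above that of general capillary ECs and overlapped with that of ECs given no subtype (10.6 to 57.4 CPM), and the level was 2.34 ± 0.32 above the empty droplets on the log2 scale (edgeR, SE, n = 4 mice, adjusted p = 3.91e-07). General capillary ECs, the progenitor-like cells of the alveolar bed, came next among the named subtypes, with 29.1, 19.3, 38.7 and 24.9 CPM (log2 difference 1.19 ± 0.18, adjusted p = 0.000133). In aerocytes, the thin capillary ECs that face the airspace, 2 UMIs were counted in all 4 mice, and in venous ECs 1 UMI. Edn1 was thus above the free RNA in arterial and general capillary ECs and in the ECs with no subtype, and in no other class tested. When each nucleus was thinned to 1500 UMIs, 6.53% to 11.0% of arterial ECs held an Edn1 UMI, beside 0.6% to 1.33% of alveolar type 2 (AT2) nuclei (median depths in AT2 nuclei of 2760 to 5652 UMIs, and in ECs of 2402 to 3686). AT2 nuclei serve as a reference here and below, and 9 of 10 members were below the empty droplets in them. A share above theirs is thus not by itself a share above free RNA. The pattern of Edn1 over 16 classes was most like those of Sema3g, Cxcl12 and Sox17 (Pearson r 0.90, 0.88 and 0.88 of log2 levels, among 11193 genes, a description over classes that share libraries). Sox17 is itself on the list of markers that named the arterial ECs.

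Ece1 (chr4:137862237-137965229, plus strand), the converting enzyme, was highest in venous ECs, with 259.3, 156.9, 250.8 and 155.3 CPM (1.31 ± 0.25 above empty droplets on the log2 scale, edgeR adjusted p = 1.87e-05), and in lymphatic ECs, with 201, 175, 215 and 188 CPM (1.20 ± 0.17, adjusted p = 1.92e-05). The ranges of these classes overlapped. Arterial ECs, general capillary ECs, dendritic cells, AT1 and AT2 nuclei were also above the empty droplets, by 0.73, 0.60, 0.86, 0.63 and 0.44 on the log2 scale, and alveolar fibroblasts and macrophages were below them.

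The receptors lay in different cells. Ednra (chr8:77663031-77724464, minus strand) was found in alveolar fibroblasts, with 356, 352, 287 and 260 CPM, and in pericytes, with 342, 283, 254 and 310 CPM. Empty droplets held 11.2, 7.84, 7.22 and 10.8 CPM of it. The differences from empty droplets were 5.26 ± 0.21 in alveolar fibroblasts and 4.99 ± 0.23 in pericytes (log2, edgeR adjusted p = 1.83e-11 and 8.91e-23). These classes overlapped with each other and with no other class tested, the third being general capillary ECs at a mean of 15.5 CPM, which was still 0.83 ± 0.22 above the empty droplets (adjusted p = 0.00648). An Ednra UMI was seen in 31.9% to 37.7% of alveolar fibroblasts and 27.8% to 36.5% of pericytes thinned to 1500 UMIs, beside 0.462% to 0.877% of AT2 nuclei. Alveolar fibroblasts outnumbered pericytes in the 4 mice (90, 66, 143 and 90 against 37, 42, 65 and 80 nuclei) and held 18.1% to 50.7% of the Ednra UMIs of all named nuclei, beside 10.5% to 15.2% in pericytes. Large classes also hold such UMIs: alveolar macrophages, in which Ednra was below the empty droplets, gave 1.84%, 6.65%, 13.3% and 20.2%. Adventitial fibroblasts, with 24, 15, 24 and 9 nuclei and no test, held 33, 38, 10 and 0 Ednra UMIs. These were 8.66%, 9.03%, 2.14% and 0% of those of all named nuclei. After subtraction of free RNA, 397, 351, 174 and -6.32 CPM were left in adventitial fibroblasts, beside 601, 476, 364 and 441 CPM in pericytes. Smooth muscle cells, the target best known for ETA receptor action, were too few to test (5, 3, 7 and 11 nuclei), and 9 Ednra UMIs were counted in them, at 68.6, 119.0, 38.7 and 108.2 CPM. In pericytes, the 9 smooth muscle markers summed to 302, 213, 337 and 243 CPM. This was 14.2, 11.4, 7.84 and 7.07 times the empty droplets, with 4 of the 9 above them in every mouse. The part of smooth muscle cells in the levels of this class was not tested.

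Ednrb (chr14:103814625-103844402, minus strand) was highest in aerocytes, at 111.3, 101.4, 254.1 and 175.5 CPM. This was 3.78 ± 0.34 above the empty droplets (log2, edgeR adjusted p = 1.94e-20), from 71 UMIs. In the neighbouring general capillary ECs it was at 2.16, 17.8, 14.6 and 16.4 CPM, beside 3.42, 29.7, 10.3 and 9.75 CPM in the empty droplets of the same mice. A UMI was thus seen in 15% to 34.0% of thinned aerocytes and in 0.344% to 2.57% of thinned general capillary ECs, beside 0.335% to 1.91% of AT2 nuclei. Arterial and venous ECs were above the empty droplets by less, 1.19 ± 0.44 and 1.44 ± 0.54 (adjusted p = 0.032 and 0.0374). The class next to aerocytes was that of monocytes and interstitial macrophages, at 12.9, 187.3, 85.5 and 105.3 CPM (2.83 ± 0.35, adjusted p = 2.19e-09). In it, 1 of 18 nuclei held an Ednrb UMI in WT 1, 17 of 44 in WT 2, 7 of 45 in Tg 1 and 5 of 38 in Tg 2, and the 8 aerocyte markers summed to 0.208 to 0.612 times the empty droplets. WT 2 also had the most Ednrb in its empty droplets, and 1 of its 15 adventitial fibroblasts held 26 Ednrb UMIs, while no such nucleus of the other 3 mice held any.

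The promoters of the ligand and the receptors are shown because the 3 genes were highest in different classes. Each line gives the 250 bases before the RefSeq start on GRCm38.p6, 5′ to 3′. Searched on both strands were TATAAA (in 12.4% of the 32851 promoters of this length), GGGCGG (32.7%), ACGTG (16.6%), TGACTCA (4.46%) and the CArG box (1.47%). None of them is in these 3 windows, so that no letters are capitalised.
Edn1, chr13:42301226-42301475, plus strand: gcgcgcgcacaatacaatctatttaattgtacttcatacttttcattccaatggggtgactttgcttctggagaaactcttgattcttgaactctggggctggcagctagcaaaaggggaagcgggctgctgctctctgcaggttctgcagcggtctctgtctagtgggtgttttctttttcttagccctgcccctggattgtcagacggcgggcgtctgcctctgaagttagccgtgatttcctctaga
Ednra, chr8:77724453-77724702, minus strand: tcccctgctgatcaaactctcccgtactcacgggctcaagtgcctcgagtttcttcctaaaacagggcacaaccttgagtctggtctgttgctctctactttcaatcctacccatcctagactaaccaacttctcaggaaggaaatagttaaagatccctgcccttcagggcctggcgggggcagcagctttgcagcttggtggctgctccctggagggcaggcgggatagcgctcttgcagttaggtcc
Ednrb, chr14:103843702-103843951, minus strand: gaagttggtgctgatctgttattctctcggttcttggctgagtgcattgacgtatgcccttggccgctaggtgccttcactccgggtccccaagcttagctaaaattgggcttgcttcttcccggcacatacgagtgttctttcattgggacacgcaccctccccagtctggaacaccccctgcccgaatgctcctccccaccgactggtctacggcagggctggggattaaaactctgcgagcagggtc

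**Figure D2:**
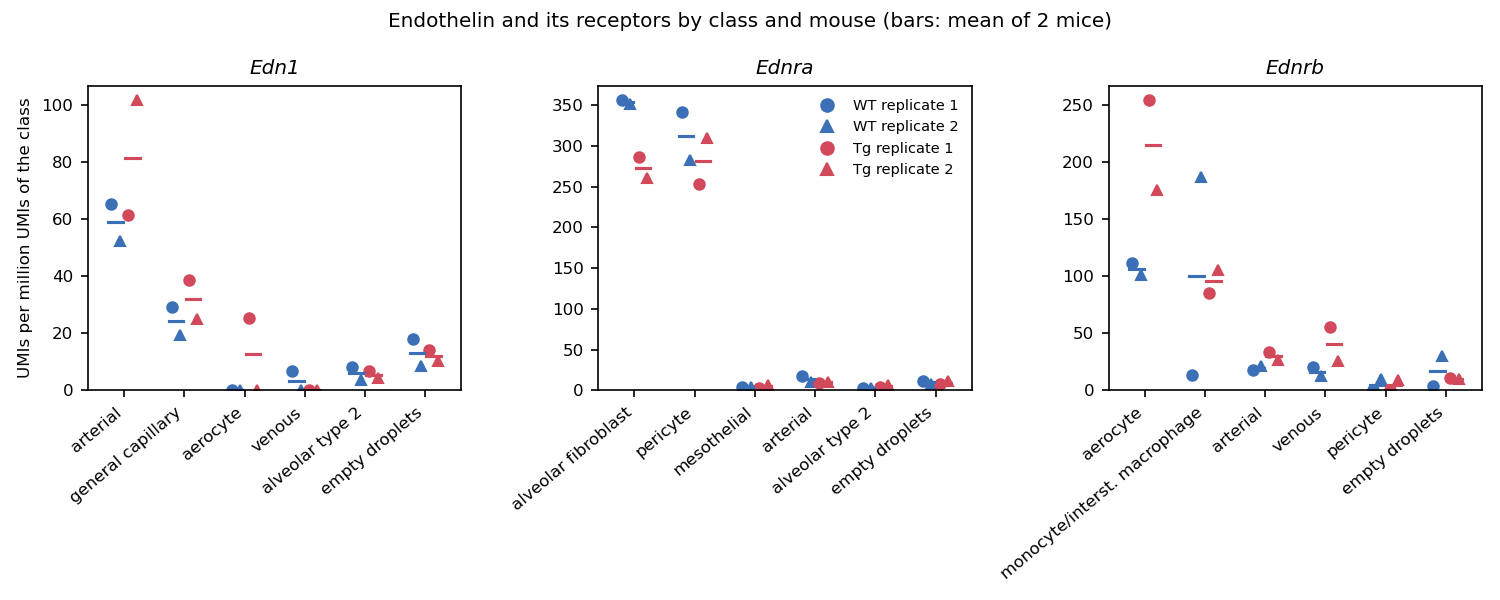
Levels of Edn1, Ednra and Ednrb in selected classes and in empty droplets (CPM on linear axes that start at 0), with 1 point per mouse and bars for the mean of the 2 mice of a genotype. Edn1 stands out in arterial ECs (52.4 to 101.5 CPM), Ednra in alveolar fibroblasts and pericytes (254 to 356 CPM), and Ednrb in aerocytes (101.4 to 254.1 CPM).

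Nos3 (chr5:24364810-24384474, plus strand), the source of nitric oxide in the endothelium, was highest in arterial and venous ECs. Arterial ECs held 152.1, 21.0, 184.3 and 68.8 CPM, with the lowest value from the 14 arterial nuclei of WT 2. Venous ECs held 113.0, 96.5, 122.6 and 69.0 CPM. Both were above the empty droplets (4.86, 4.76, 11.2 and 5.13 CPM), by 3.94 ± 0.33 and 3.90 ± 0.41 on the log2 scale (edgeR, adjusted p = 3.51e-12 and 1.70e-13). Of the named subtypes, general capillary ECs followed at 36.7, 40.1, 43.4 and 23.4 CPM, below every venous value. ECs with no subtype held 65.8, 39.3, 80.2 and 33.9 CPM and overlapped with both. Aerocytes held 3 Nos3 UMIs in all, at 0, 16.9, 12.7 and 0 CPM. The patterns most like that of Nos3 were those of Myrip, Ptprr and Ptprb (r 0.95, 0.94 and 0.94 over 16 classes), of which Ptprb is on the endothelial marker list.

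Nos3 was also read in ciliated cells, and there it differed between genotypes. Ciliated nuclei held 3.81, 5.66, 32.1 and 24.4 CPM, from 11, 14, 181 and 135 UMIs in 447, 364, 1202 and 992 nuclei. Both Tg mice were above both WT mice, in which the level was near that of the empty droplets. The difference between genotypes was 2.55 ± 0.35 on the log2 scale (edgeR, n = 2 mice per genotype, adjusted p = 0.0168), beside 1.17 ± 0.49 in empty droplets (adjusted p = 0.117). Nos3 was the 1 member of 10 called in ciliated nuclei, where 4.56% of all genes tested were called. A Nos3 UMI was seen in 0.445%, 1.06%, 4.72% and 3.91% of nuclei thinned to 1500 UMIs (2.01%, 3.57%, 13.2% and 12.3% not thinned), a mean difference of 3.56 percentage points (two-sided exact permutation test over mice, p = 0.333, the smallest that 2 against 2 mice allow). In AT2 nuclei, thinned the same way, the shares were 0.156%, 0.211%, 0.646% and 0.256%.

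Markers of ECs were set beside this result. In ciliated nuclei, the 19 endothelial markers summed to 485, 368, 503 and 484 CPM, which was 0.336, 0.343, 0.446 and 0.445 times the empty droplets, and none of the 19 exceeded the empty droplets in every mouse. For 10 of the 19, both Tg mice were above both WT mice. The 9 arterial markers summed to 1.62, 1.39, 1.25 and 1.49 times the empty droplets, so that they were above them in both genotypes, with 1 of the 9 above in every mouse and 4 of the 9 higher in both Tg mice. The part of these markers in the result was not tested. Within the Tg mice, ciliated nuclei with a Nos3 UMI held 523 and 446 CPM of the 19 endothelial markers, and those without held 499 and 491 CPM. The ciliated nuclei with a Nos3 UMI were deeper than the rest in every mouse (median of 4690 against 3542 UMIs in Tg 1 and of 6007 against 4218 in Tg 2). Of the counted genes that overlap Nos3 on the opposite strand, Atg9b had no UMI in ciliated nuclei. The other, Gm15587, was at 33.6, 18.6, 28.4 and 29.1 CPM there, against 2.70, 1.40, 0.635 and 0.513 CPM in empty droplets. Its level in ciliated nuclei thus overlapped between genotypes and was well above the empty droplets in every mouse, and in ECs it was at 4.34, 2.17, 8.19 and 3.69 CPM. Whether reads were counted by strand is not given in the sources used here, and without strand the reads of Nos3 and Gm15587 cannot be told apart where the genes overlap. When free RNA was subtracted from the sums, the difference was 2.77 with an adjusted p of 0.124, and only 1 gene in all was called in ciliated nuclei. Without Tg 1 it was 2.30 with an adjusted p of 0.137 and 5 genes called.

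**Figure D3:**
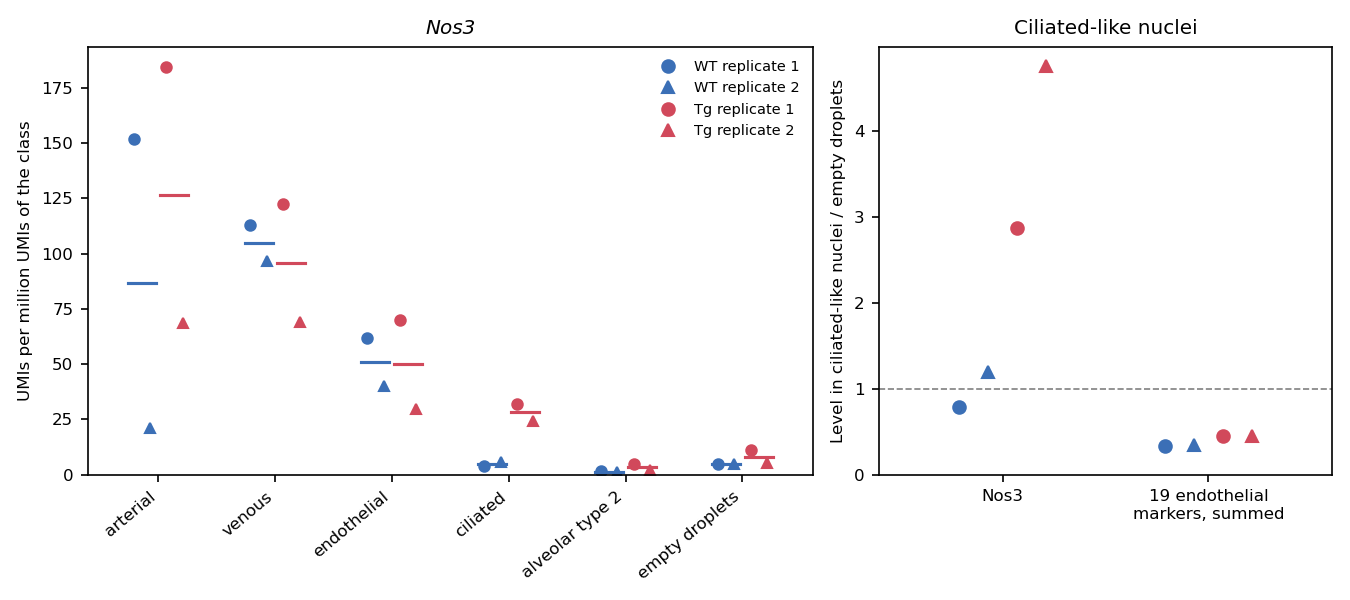
Left, Nos3 level (CPM, linear axis) by class and mouse, with bars for the mean of 2 mice. Right, ratio of the level in ciliated nuclei to that in empty droplets of the same mouse, for Nos3 and for 19 endothelial markers summed, with a dashed line at equality: Nos3 lies at 0.784 (WT 1), 1.19 (WT 2), 2.87 (Tg 1) and 4.75 (Tg 2), and the markers lie at 0.336 to 0.446 in all mice.

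Soluble guanylate cyclase, the receptor of nitric oxide, was at its highest level in pericytes. Gucy1a1 (chr3:82092427-82145789, minus strand) was at 1034, 694, 792 and 936 CPM in pericytes, against 19.3, 20.2, 40.1 and 29.2 CPM in empty droplets (4.99 ± 0.26, log2, edgeR adjusted p = 4.23e-21). Gucy1b1 (chr3:82032006-82074689, minus strand) was at 620.5, 656.4, 574.9 and 686.7 CPM, against 16.0, 9.24, 14.3 and 10.8 CPM (5.62 ± 0.26, adjusted p = 4.69e-23). Neither range overlapped with that of any other class. Of the Gucy1a1 UMIs of all named nuclei, pericytes gave 31.9%, 21.8%, 13.5% and 18.2%, and the more numerous mesothelial nuclei gave 22.5%, 32.2%, 29.0% and 26.3%, more than pericytes in 3 of 4 mice. Of the Gucy1b1 UMIs, pericytes gave 27.3% to 45.4% and mesothelial nuclei 2.83% to 7.39%. Alveolar macrophages, in which both genes were below the empty droplets, still gave 4.9% to 18.3% of the Gucy1a1 and 3.3% to 17.8% of the Gucy1b1 UMIs. Both subunits were detected in 26 of 37, 29 of 42, 41 of 65 and 58 of 80 pericytes. Every one of these nuclei also held Prkg1, as did nearly all pericytes (means of 98.8% in WT and 99.4% in Tg mice, not thinned). Ednra was seen beside all of them in 37.8%, 45.2%, 35.4% and 45% of pericytes, so that the receptor for constriction and the cascade for relaxation were read in the same nuclei.

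The enzyme works as a pair of an alpha and a beta subunit, and in mesothelial nuclei the subunits differed in their relation to the empty droplets. There, Gucy1a1 was above the empty droplets, at 65.6, 78.9, 120.8 and 82.5 CPM (1.81 ± 0.16, edgeR adjusted p = 1.14e-06), while Gucy1b1 was below them, at 4.28, 4.73, 11.0 and 9.45 CPM (-0.62 ± 0.25, adjusted p = 0.0443). After subtraction of free RNA, -1.11, 2.75, 10.2 and 9.06 CPM of Gucy1b1 were left there. In alveolar fibroblasts both were above, Gucy1a1 by 1.37 ± 0.32 (adjusted p = 0.00227) and Gucy1b1 by 2.08 ± 0.26 (adjusted p = 7.51e-06). Smooth muscle cells held 7 and 5 UMIs of Gucy1a1 and Gucy1b1, and the smooth muscle markers held by pericytes are given above with Ednra. The genes most like Gucy1a1 were Aff2, Mark1 and Vsnl1 (r 0.96, 0.96 and 0.95), and those most like Gucy1b1 were Gm16833, 4930447N08Rik and Pdgfrb (r 0.98, 0.98 and 0.98), of which Pdgfrb is a pericyte marker.

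Gucy1a1 and Gucy1b1 lie next to each other on the same strand of chromosome 3, and their promoters are shown as those of 2 genes that were highest in the same cells. Capitals mark GGGCGG, the only one of the motifs above found in either window. RefSeq has a second start of Gucy1a1, whose window (chr3:82145074-82145323) holds none of them and is not shown.
Gucy1a1, chr3:82145651-82145900, minus strand: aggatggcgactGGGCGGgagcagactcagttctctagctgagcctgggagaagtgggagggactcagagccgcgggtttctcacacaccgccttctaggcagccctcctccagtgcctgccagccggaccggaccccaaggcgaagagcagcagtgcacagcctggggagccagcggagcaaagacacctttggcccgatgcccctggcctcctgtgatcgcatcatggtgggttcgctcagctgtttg
Gucy1b1, chr3:82074712-82074961, minus strand: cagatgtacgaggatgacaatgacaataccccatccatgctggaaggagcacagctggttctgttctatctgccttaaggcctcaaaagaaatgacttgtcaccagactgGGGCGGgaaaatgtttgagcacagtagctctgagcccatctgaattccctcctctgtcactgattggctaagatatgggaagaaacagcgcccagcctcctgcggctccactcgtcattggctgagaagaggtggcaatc

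Prkg1 (chr19:30564489-31765033, minus strand), the kinase downstream of cGMP, was highest in pericytes, at 6253, 5988, 4226 and 4692 CPM. The difference from empty droplets (290.0, 277.6, 84.5 and 111.3 CPM) was 4.94 ± 0.27 on the log2 scale (edgeR adjusted p = 3.17e-20). Alveolar fibroblasts followed without overlap among the classes tested, at 3154, 3577, 2446 and 2515 CPM (4.24 ± 0.22, edgeR adjusted p = 2.87e-10). Smooth muscle cells, too few to test, held 22, 52, 32 and 90 Prkg1 UMIs, and adventitial fibroblasts, not tested either, held 133, 232, 90 and 14. After subtraction of free RNA, 3053, 2630, 1706 and 4192 CPM were left in smooth muscle cells, beside 4287, 4987, 3289 and 3325 CPM in alveolar fibroblasts. Unlike the cyclase, Prkg1 was also above the empty droplets in many other classes, among them mesothelial nuclei (3.03), AT1 nuclei (2.64), aerocytes (2.60), lymphatic ECs (2.57), arterial ECs (2.28) and general capillary ECs (1.48, all log2). In venous ECs the difference was 0.24 ± 0.27 (adjusted p = 0.559). In AT2 nuclei it was below the empty droplets (-0.78 ± 0.17, adjusted p = 0.0015). Lhfp, Arhgap6 and Trpc1 were most like it (r 0.92, 0.90 and 0.87).

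**Figure D4:**
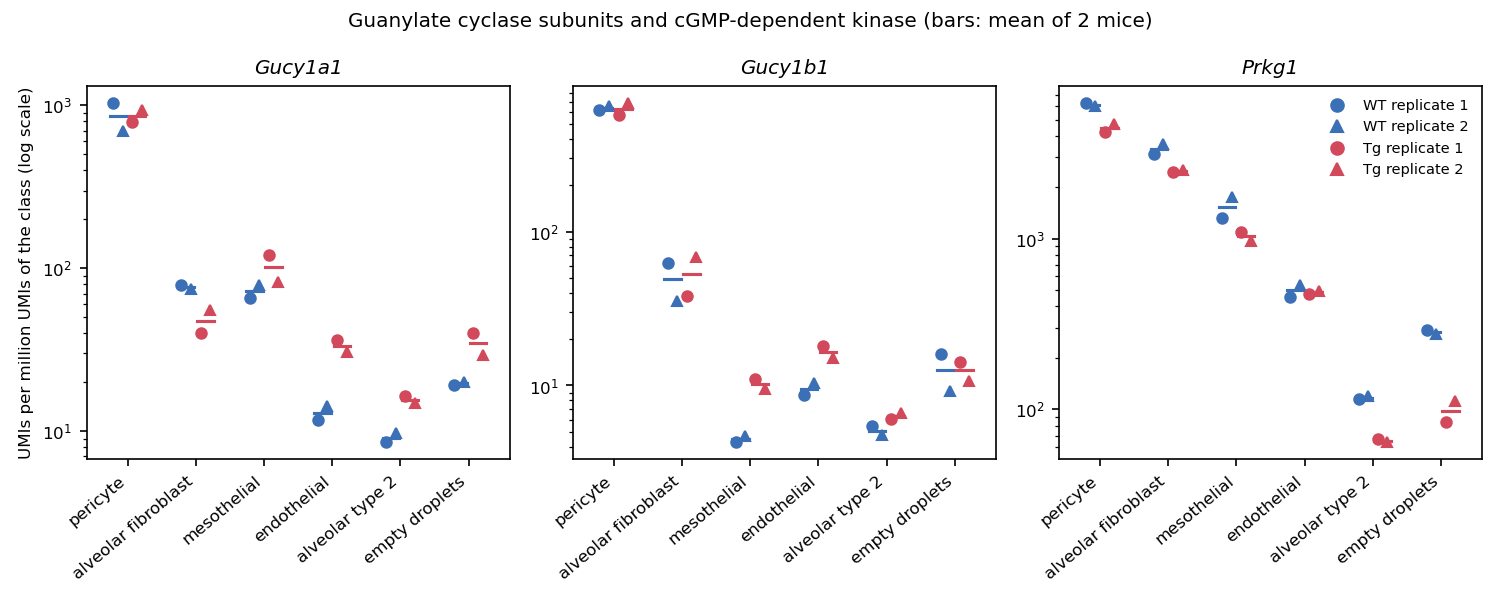
Levels of Gucy1a1, Gucy1b1 and Prkg1 by class and mouse (CPM on log axes, bars for the mean of 2 mice). All 3 peak in pericytes, mesothelial nuclei lie above the empty droplets for Gucy1a1 and below them for Gucy1b1, and in empty droplets Prkg1 is lower and Gucy1a1 higher in the Tg mice.

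Counted by class, 4 of the 8 members tested in pericytes were above the empty droplets (Ednra, Gucy1a1, Gucy1b1 and Prkg1), where 12.0% of all genes were. In alveolar fibroblasts 5 of 8 were (22.1% of all genes). In ECs as a whole 6 of 10 were (22.4%), in ECs with no subtype 5 of 10 (20.5%), in arterial ECs 5 of 10 (15.2%), in general capillary ECs 5 of 10 (23.1%), in venous ECs 3 of 8 (11.2%), in lymphatic ECs 3 of 9 (18.4%) and in aerocytes 2 of 8 (10.7%). In mesothelial nuclei 3 of 10 were (28.2%), in AT1 nuclei 2 of 10 (27.2%), in AT2 nuclei 1 of 10 (27.7%) and in ciliated nuclei 1 of 10 (29.9%). Monocytes and interstitial macrophages held 1 of 7 (12.9%) and dendritic cells 1 of 6 (16.9%), and alveolar macrophages, T cells and B cells none of 10, 10 and 9 (30.6%, 18.7% and 20.8%). The median difference of the members was 2.29 in pericytes and 1.44 in alveolar fibroblasts, beside -0.12 and -0.10 over all genes tested. In ECs it was 0.65 beside -0.10. In lymphatic ECs, the EC subtypes and ECs with no subtype it ran from -0.15 to 0.53. In mesothelial, epithelial and immune classes it ran from -1.38 in ciliated nuclei to -0.34 in T cells, beside -0.17 to -0.04 over all genes. Members below the empty droplets were most in AT2 nuclei, 9 of 10, where 37.9% of all genes were below. They were 8 of 10 in AT1 nuclei (36.8%) and in alveolar macrophages (33.5%), 6 of 10 in mesothelial (34.4%) and ciliated nuclei (35.3%), 5 of 9 in B cells (24.1%), 3 of 10 in T cells (25.1%) and 3 of 8 in alveolar fibroblasts (27.8%). In ECs as a whole and general capillary ECs 2 of 10 were below (29.9% and 28.5%), in monocytes and interstitial macrophages 2 of 7 (17.1%), in pericytes 1 of 8 (16.7%), in lymphatic ECs 1 of 9 (24.3%), in ECs with no subtype 1 of 10 (26.2%) and in dendritic cells 1 of 6 (21.4%). None was in aerocytes, arterial or venous ECs (13.7%, 19.6% and 14.2%). Members that missed the filter on low counts in these classes, such as Nos3 and Ptgir in pericytes, are not counted.

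Ptgis (chr2:167191805-167240604, minus strand), the enzyme that makes prostacyclin, was highest outside the endothelium. Mesothelial nuclei held 388, 400.5, 486 and 370.3 CPM (2.10 ± 0.22 above empty droplets on the log2 scale, edgeR adjusted p = 5.41e-06). Alveolar fibroblasts held 227, 336, 304 and 222 CPM (1.502 ± 0.211, adjusted p = 2.74e-05). Adventitial fibroblasts, with 9 to 24 nuclei per mouse and no test, held 190.3, 339, 376 and 231 CPM. The levels of mesothelial nuclei and alveolar fibroblasts did not overlap with each other or with the next class tested.

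In ECs, Ptgis lay below the empty droplets, at 46.5, 75.5, 97.1 and 70.0 CPM against 56.0, 133.8, 109.9 and 137.5 CPM (-0.57 ± 0.15, adjusted p = 0.00702). The sign depends on which droplets are taken as empty: against those of 100 to 300 UMIs, of which WT 1 held 101, the difference was 2.09 (adjusted p = 0.159). Venous ECs were at the level of the empty droplets (113.0, 96.5, 139.3 and 94.9 CPM, log2 difference 0.08 ± 0.28, adjusted p = 0.873). Because part of the UMIs of each class is free RNA, a level at or below the empty droplets does not by itself show that a gene is silent. After the estimated free RNA was taken off, 39.5, 30.4, 90.9 and 33.8 CPM were left in ECs and 146.4, 74.4, 149.2 and 74.0 CPM in venous ECs, beside 540.45, 517, 577 and 439.7 CPM in mesothelial nuclei and -8.65, -25.7, 6.59 and -13.6 CPM in AT2 nuclei. Smtnl2, Fmo2 and Hlf had the patterns most like that of Ptgis (r 0.91, 0.91 and 0.91).

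Ptgir (chr7:16906490-16910905, plus strand), the receptor of prostacyclin, was above the empty droplets in no class. It was below them in ECs as a whole, general capillary ECs, mesothelial, AT1, AT2, ciliated and B nuclei (log2 difference from -1.58 to -0.86, edgeR). It was the shortest of the 10 genes, with 4416 bases, and empty droplets held 5.58, 12.0, 4.05 and 12.3 CPM of it. Among classes with at least 10 nuclei in every mouse, its highest mean was 8.04 CPM, in aerocytes, from 4 UMIs. In pericytes 7 UMIs were counted in all 4 mice, and in smooth muscle cells 1 UMI. Alveolar macrophages gave 33.8% to 42.5% of the Ptgir UMIs of named nuclei, at 17.0, 5.64, 2.51 and 6.44 CPM. Their level was above that of the empty droplets in WT 1 and below it in WT 2, Tg 1 and Tg 2. Of the UMIs of all genes in named nuclei, they held 2002048 of 17795980, 7628118 of 32251981, 9960420 of 36016756 and 20326547 of 57596271. After subtraction of free RNA, 23.7, 2.31, 1.90 and 4.06 CPM were left in them and 5.83, 3.13, 6.31 and 8.02 CPM in T cells.

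In the class where each member was highest among those in which its genotype difference could be tested, no difference between genotypes passed the test, which with 2 mice against 2 does not show that the levels were alike. Over 18 classes, 119 tests of members could be made, and 4 passed: Nos3 in ciliated nuclei, Gucy1a1 in ECs as a whole and in general capillary ECs (a part of the former), and Prkg1 in AT2 nuclei. In the 14 classes without a member called, the share of all genes called was 4.38% in pericytes, 5.88% in alveolar fibroblasts, 7.14% in mesothelial nuclei and in T cells, 8.37% in AT1 nuclei, 4.41% in arterial ECs, 6.85% in venous ECs, 6.37% in aerocytes, 5.72% in lymphatic ECs, 7.22% in ECs with no subtype, 6.83% in alveolar macrophages, 5.21% in monocytes and interstitial macrophages, and 5.12% in dendritic and in B cells. Terf2, the mouse gene of TRF2, was at 53.4, 50.8, 45.5 and 53.0 CPM in ECs (-0.09, edgeR adjusted p = 0.78). Whether reads of the transgene are counted in it was not tested.

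The endothelin genes did not pass in any class. Edn1 in arterial ECs differed by 0.54 ± 0.42 (log2, Tg against WT, edgeR adjusted p = 0.622) and in ECs by 0.50 ± 0.42 (adjusted p = 0.457). Ednra differed by -0.32 ± 0.21 in alveolar fibroblasts (adjusted p = 0.403), by 0.02 ± 0.27 in pericytes (adjusted p = 0.987) and by 0.58 ± 0.31 in ECs (adjusted p = 0.256). Ednrb in aerocytes had the widest gap of the endothelin receptor differences given here, 1.18 ± 0.43 with both Tg mice above both WT mice, and an adjusted p of 0.15. In ECs it was 0.29 ± 0.24 (adjusted p = 0.444). Ece1 differed by 0.09 ± 0.39 in venous ECs and by 0.17 ± 0.20 in ECs (adjusted p = 0.95 and 0.604).

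Nos3 in ECs did not differ between genotypes beyond the spread between mice. Its level was 61.6, 39.9, 70.1 and 29.8 CPM, so that both genotypes held a high and a low mouse, and the difference was -0.03 ± 0.43 (edgeR adjusted p = 0.968). In arterial ECs it was 0.46 ± 0.65 (adjusted p = 0.809). The genotype effect on Nos3 in ECs differed from that in all other named nuclei together, lymphatic ECs included, by -1.68 on the log2 scale (test of the interaction, edgeR adjusted p = 0.018). Only 0.0980% of genes passed this test, and Nos3 was the 1 member of 10. In the other named nuclei together, its level was 3.03, 1.80, 9.85 and 4.93 CPM, below the empty droplets of the same mouse in every mouse. Without Tg 2 it was -1.47 with an adjusted p of 0.448, and with a looser threshold for naming nuclei (a Poisson tail of 0.001) it was -1.08 with an adjusted p of 0.0847. The share of all named Nos3 UMIs that came from ciliated nuclei was 5.82%, 9.59%, 29.9% and 31.7%. Lymphatic ECs, also among the other named nuclei, gave 1.59%, 7.53%, 1.49% and 1.17%. The make-up of the other named nuclei differed between genotypes: alveolar macrophages were 488 of 3338, 1319 of 5036, 3313 of 9363 and 4975 of 12038 of them. Its part in the interaction was not tested.

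Gucy1a1 was higher in ECs of the Tg mice. ECs held 11.7, 14.3, 36.1 and 30.5 CPM (1.35 ± 0.26, edgeR adjusted p = 0.0262), and general capillary ECs 12.9, 12.6, 39.2 and 30.3 CPM (1.43 ± 0.34, adjusted p = 0.0365). It was the 1 member of 10 called in ECs and of 9 in general capillary ECs, where 7.89% and 6.92% of all genes were called. In the empty droplets, Gucy1a1 rose as well, by 1.12 ± 0.31 (adjusted p = 0.0438), and the difference of ECs from them did not pass (-0.30 ± 0.16, adjusted p = 0.12). After the estimated free RNA was taken off, 6.25, 9.81, 34.2 and 31.2 CPM were left in ECs. In the ECs, the 15 pericyte markers summed to 61.6, 51.2, 121.7 and 89.8 CPM, with no overlap of the genotypes for 8 of the 15, the Tg mice being higher, and they were at 0.685, 0.784, 1.25 and 0.912 times the empty droplets. The 9 smooth muscle markers summed to 12.6, 11.3, 55.2 and 28.1 CPM (7 of 9 higher in both Tg mice) and the 9 mesothelial markers to 246, 475, 789 and 912 CPM (8 of 9). Relative to the empty droplets, the smooth muscle markers were at 0.593, 0.606, 1.29 and 0.817 times and the mesothelial markers at 0.422, 0.501, 0.498 and 0.498 times. The part of these lists in the result was not tested. In pericytes, where the gene was highest, the difference was 0.16 ± 0.27 (adjusted p = 0.84). With free RNA subtracted the EC difference was 1.95 (edgeR adjusted p = 0.0877), and without Tg 1 it was 1.19 and the call was lost. In general capillary ECs the call was lost in both of these settings as well. It was also lost there with DESeq2, at both other marker tails, with possible doublets kept and with the nearest class profile.

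Prkg1 fell in AT2 nuclei of the Tg mice, from 114.5 and 119.2 CPM to 66.7 and 64.0 CPM (-0.84 ± 0.15, edgeR adjusted p = 0.0162). It was the 1 of 9 members tested that was called there, in a class with 11.0% of all genes called. In the empty droplets it fell too, from 290.0 and 277.6 CPM to 84.5 and 111.3 CPM (-1.31 ± 0.24, adjusted p = 0.0192), and AT2 nuclei were below the empty droplets. Of the genes tested in empty droplets, 25.6% were called, Prkg1 and Gucy1a1 among 10 members. With free RNA subtracted, the sign in AT2 nuclei turned (3.03, adjusted p = 0.229), and without Tg 1 or Tg 2 the adjusted p was 0.111 or 0.0644. In pericytes Prkg1 differed by -0.31 ± 0.30 (adjusted p = 0.684), with both WT mice above both Tg mice, and in ECs by -0.05 ± 0.17 (adjusted p = 0.886).

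The other genes of the cyclase and prostacyclin steps did not pass in the classes with the highest level among those tested. Gucy1b1 in pericytes differed by 0.13 ± 0.25 (edgeR adjusted p = 0.861) and in ECs by 0.79 ± 0.31 (adjusted p = 0.146). Ptgis differed by 0.13 ± 0.20 in mesothelial nuclei (adjusted p = 0.722) and by 0.46 ± 0.28 in ECs (adjusted p = 0.311). Ptgir differed by 0.53 ± 0.69 in ECs (adjusted p = 0.645) and by -1.23 ± 0.64 in alveolar macrophages (adjusted p = 0.246), and in aerocytes, where its mean was highest, it was not tested.

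**Figure D5:**
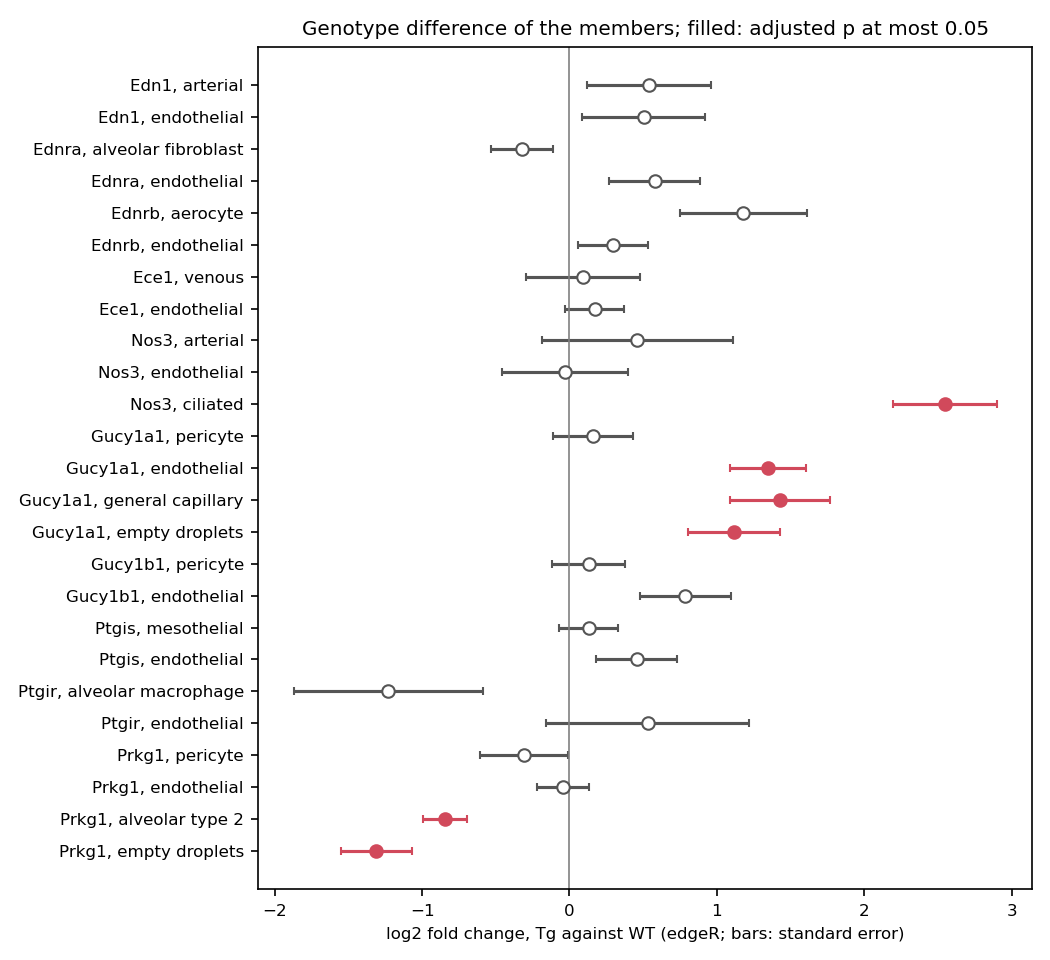
Difference between genotypes (log2 fold change, Tg against WT, with the standard error of edgeR) of each member in the class where it was highest among those tested, in ECs, and where it passed. Filled red points have an adjusted p of at most 0.05: Nos3 in ciliated nuclei (2.55), Gucy1a1 in ECs and general capillary ECs (1.35 and 1.43) and Prkg1 in AT2 nuclei (-0.84), with Gucy1a1 and Prkg1 in empty droplets (1.12 and -1.31) beside them.

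The 45 further genes of these pathways were spread over the classes. Of those tested, 17 of 40 were above the empty droplets in ECs (22.4% of all genes), 10 of 34 in pericytes (12.0%), 15 of 36 in alveolar fibroblasts (22.1%) and 17 of 39 in mesothelial nuclei (28.2%), while 7 (29.9% of all genes), 1 (16.7%), 12 (27.8%) and 16 (34.4%) were below them. In pericytes, 6 of the 15 nitric oxide and cGMP genes tested were above (12.0% of all genes). They were Pde5a, the phosphodiesterase that breaks down cGMP and the target of sildenafil (2291, 1322, 1626 and 1641 CPM, log2 difference 5.90 ± 0.26), Gucy1a2, the second alpha subunit of the cyclase (5.55 ± 0.25), Npr3, the clearance receptor of natriuretic peptides (2.90), Nostrin (2.82), Mylk, the kinase of the myosin light chain (2.39), and Ppp1r12a. Alveolar fibroblasts held Prkg2, the second cGMP-dependent kinase, at 229, 286, 209 and 205 CPM (5.57 ± 0.21) and Mylk (4.36 ± 0.18). In ECs, 9 of 19 genes of this list were above (22.4% of all genes), among them Nostrin, which traffics the synthase (2.77 ± 0.14), Ddah1, which degrades an inhibitor of nitric oxide synthases (2.54 ± 0.17), and Npr3 (2.47 ± 0.17).

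Of the endothelin list, 4 of 7 genes tested were above the empty droplets in ECs (22.4% of all genes) and 3 of 7 in pericytes (12.0%), with Plcb1 and Plcb4, phospholipases downstream of the receptors, in both. Edn3, another endothelin, was above them in AT1 nuclei at a low level, 7.92, 7.46, 6.58 and 4.90 CPM (1.82 ± 0.36). Of the prostanoid list, 4 of 14 genes tested were above the empty droplets in ECs (22.4% of all genes) and 5 below (29.9%), and 1 of 12 was above in pericytes (12.0%). Pde3a, a phosphodiesterase of cAMP, was high in venous ECs (3364, 3089, 2881 and 2338 CPM, 5.24 ± 0.29) and pericytes (4.02 ± 0.23), Tbxas1, the thromboxane synthase, in alveolar macrophages (2.50 ± 0.19), and Ptger3, a receptor of prostaglandin E2, in mesothelial nuclei (2.41 ± 0.20).

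Between genotypes, no gene of these lists passed in ECs as a whole, in pericytes or in ciliated nuclei. Those that did were 1 of 38 tested in mesothelial nuclei, where 7.14% of all genes were called, 1 of 18 in venous ECs (6.85%), 1 of 29 in alveolar fibroblasts (5.88%), 1 of 23 in lymphatic ECs (5.72%), 2 of 39 in alveolar macrophages (6.83%), 2 of 34 in T cells (7.14%) and 4 of 38 in AT2 nuclei (11.0%). In each of these classes the share was below that of all genes. Ptger3 fell in mesothelial nuclei of the Tg mice (42.1, 35.3, 16.5 and 19.8 CPM, log2 difference -1.07 ± 0.25, edgeR adjusted p = 0.0444). Mylk rose in venous ECs (26.6, 36.2, 111.5 and 155.3 CPM, 2.21 ± 0.53, adjusted p = 0.0165), a class of 15 to 51 nuclei per mouse in which its difference from the empty droplets did not pass (0.41, adjusted p = 0.39). Mylk was above the empty droplets in pericytes and alveolar fibroblasts. It was also above them in ECs as a whole, general capillary ECs, aerocytes, lymphatic ECs, ECs with no subtype and AT2 nuclei. In venous ECs the 15 pericyte markers summed to 59.8, 12.1, 44.6 and 43.1 CPM. The 9 smooth muscle markers summed there to 19.9, 0, 16.7 and 25.9 CPM (3, 0, 3 and 3 UMIs), with 1 marker of each list higher in both Tg mice. Both lists were higher in the Tg mice in ECs as a whole, as given above for Gucy1a1. The part of these lists in the Mylk result was not tested. Of 42 genes of the lists tested for the interaction, 1 passed (0.0980% of all genes did), Tbxas1 (-0.83 ± 0.13, edgeR adjusted p = 0.0362). It was at 99.0, 138.1, 55.2 and 94.4 CPM in ECs, where its difference from the empty droplets did not pass (-0.24, edgeR adjusted p = 0.129). Empty droplets held 140.9, 169.1, 52.9 and 108.8 CPM of Tbxas1, and the other named nuclei held 159.2, 216.5, 162.4 and 258.2 CPM. The part of free RNA in this result was not tested. Slco2a1, the prostaglandin transporter, rose in alveolar fibroblasts (1.18 ± 0.28, adjusted p = 0.0377), alveolar macrophages and T cells, and was below the empty droplets in all 3 classes (-1.11, -0.99 and -0.63 on the log2 scale). Cav1, the caveolin that binds Nos3, rose in AT2 nuclei, lymphatic ECs, alveolar macrophages and T cells, and also in empty droplets (1.21 ± 0.24, adjusted p = 0.0217). It was below them in AT2 nuclei, alveolar macrophages and T cells (-1.06, -0.89 and -0.77), and its difference from them in lymphatic ECs did not pass (-0.33, adjusted p = 0.158). In AT2 nuclei, Ptger4 rose and Arg2 and Pla2g4a fell, the last 2 of which fell in empty droplets as well. Ptger4 and Pla2g4a were below the empty droplets there (-0.59 and -0.88), and Arg2 was above them (1.93).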

How the data were processed

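Single-nucleus libraries of 4 lungs were analysed. The deposited values are UMI counts per gene and barcode, unfiltered. According to the submitters' processing notes, the authors used Cell Ranger 6.1.1 and mm10, and the methods state that introns were counted. Barcodes with 1500 or more UMIs were given to a class when the UMIs of a marker list exceeded those expected from empty droplets (300 to 800 UMIs) with a Poisson tail of at most 1e-06 and at least 2 markers; barcodes that passed in 2 compartments were dropped as possible doublets. Endothelial nuclei got a subtype at a tail of at most 0.001. Lymphatic ECs were a class of their own, left out of ECs as a whole and counted among the other named nuclei. UMIs were summed per mouse and class (at least 10 nuclei in every mouse) and tested over all genes with edgeR 4.0.16 (quasi-likelihood, TMM, filterByExpr with a minimum of 10, Benjamini-Hochberg, threshold 0.05), for genotype, for class against empty droplets with a term per mouse, and for the interaction of genotype with endothelial against other named nuclei. The tests were tried on simulated counts first. The share of free RNA was estimated from secretory epithelial genes (blood and immune genes for epithelial classes). Members, lists and tests were chosen with earlier results of these data known. Named were all 10 members in every class, with their genotype difference in the leading class, in endothelial nuclei and where it passed, pathway genes that passed, and the 3 genes most like each member (at least 20 CPM in a class, log2 of CPM + 10). Positions are from GENCODE M21 (GRCm38, the build of mm10), promoters from RefSeq, which matched 8 of the 10 members. Counts of overlapping genes on opposite strands assume strand-specific counting, which is not given in the sources used here. Alternatives were DESeq2 1.42.0, no filter, a replicate block, each mouse left out, 1000 or 3000 UMIs per nucleus, tails of 0.001 and 1e-09, possible doublets kept, the nearest class profile, free RNA subtracted, empty droplets of 100 to 300 UMIs, and shares not thinned.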

Additional observations from a re-analysis of the deposited data

Results flagged for a closer look

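The genotype difference of Nos3 in ECs differed from that in all other named nuclei together, lymphatic ECs included, by -1.68 on the log2 scale (test of the interaction, edgeR adjusted p = 0.018). The call was lost without Tg 2 (-1.47, adjusted p = 0.448) and with a looser threshold for naming nuclei, a tail of 0.001 (-1.08, adjusted p = 0.0847). Nos3 was at 61.6, 39.9, 70.1 and 29.8 CPM in ECs, at 3.03, 1.80, 9.85 and 4.93 CPM in the other named nuclei and, among these, at 3.81, 5.66, 32.1 and 24.4 CPM in ciliated nuclei (WT 1, WT 2, Tg 1 and Tg 2). In ciliated nuclei both Tg mice were above both WT mice. In ciliated nuclei, the summed endothelial markers were at 0.336, 0.343, 0.446 and 0.445 times the empty droplets, and the 9 arterial markers at 1.62, 1.39, 1.25 and 1.49 times. Gm15587, which overlaps Nos3 on the opposite strand, was at 33.6, 18.6, 28.4 and 29.1 CPM in ciliated nuclei, and its part in the Nos3 counts was not tested. The make-up of the other named nuclei differed between genotypes, and its part in the interaction was not tested either.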

How the results depend on the processing

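Over 62 results and 738 alternative values, 631 were kept. For log2 differences this means the same direction and the same side of the threshold. For counts of genes called it means a count near the main one. For shares of nuclei it means the same sign and a change smaller than the SD between mice. With 2 mice per genotype, every call between genotypes was lost with some mouse left out, which leaves 1 mouse in a genotype. The log2 differences kept their sign. They ran from 2.30 to 2.79 for Nos3 in ciliated nuclei (call lost without Tg 1). For Gucy1a1 they ran from 1.19 to 1.501 in ECs (lost without Tg 1) and from 1.20 to 1.65 in general capillary ECs (without Tg 1 or WT 2). In empty droplets Gucy1a1 ran from 0.66 to 1.40 (lost without WT 1, Tg 1 or Tg 2). For Prkg1 they ran from -0.91 to -0.78 in AT2 nuclei and from -1.37 to -1.26 in empty droplets (both lost without Tg 1 or Tg 2). The Nos3 interaction ran from -1.81 to -1.47 (lost without Tg 2). Conversely, Edn1 in ECs (1.09, adjusted p = 0.0326) and Nos3 in arterial ECs (2.69, 0.0176) passed without WT 1, Ptgir in alveolar macrophages (-1.93, 0.0357) without WT 2 and Ednrb in aerocytes (1.59, 0.0294) without Tg 2. Against empty droplets, Nos3 in ciliated nuclei (0.72, 0.0651) and Ptgis in ECs (-0.44, 0.0677) missed the threshold without Tg 2, and Ptgir in alveolar macrophages fell below them without WT 1 (-0.84, 0.00418). A genotype left with 1 mouse is assumed to vary like the other.

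With free RNA subtracted, Nos3 in ciliated nuclei was at 2.77 (adjusted p = 0.124), Gucy1a1 at 1.95 in ECs and 1.98 in general capillary ECs (0.0877 and 0.131), and Prkg1 in AT2 nuclei turned to 3.03 (0.229). Gucy1a1 in ECs and general capillary ECs missed the threshold at a marker tail of 1e-09 (1.16 and 1.17), with possible doublets kept (0.96 and 0.82) and with the nearest class profile (0.81 and 0.85), and in general capillary ECs also with DESeq2 (1.40) and a tail of 0.001 (1.14). Prkg1 in AT2 nuclei missed it with at least 3000 UMIs (-0.61) and a tail of 1e-09 (-0.60), and the Nos3 interaction with a tail of 0.001 (-1.08). The causes were not tested.

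The genes called between genotypes, with a mouse left out, numbered 161 to 2610 in ECs, 249 to 1206 in general capillary ECs, 5 to 1995 in ciliated nuclei, 34 to 2468 in AT2 nuclei, 0 to 4802 in empty droplets (the 0 without Tg 1, with 3232 genes at an unadjusted p under 0.05) and 0 to 644 for the interaction (the 0 without Tg 2, with 835 such genes), all by edgeR. With no filter they were 2832, 1858, 308 and 3397 in ECs, general capillary ECs, ciliated and AT2 nuclei and 417 for the interaction. With free RNA subtracted they were 153, 88, 1 and 56. For the interaction they were 36 with DESeq2, 38 and 6 with at least 1000 and 3000 UMIs, 51 and 31 with tails of 0.001 and 1e-09, and 115 with possible doublets kept. Against empty droplets of 100 to 300 UMIs (101 barcodes in WT 1), 184 genes were higher in pericytes and 670 in ECs, and 70 differed between genotypes in those droplets.

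The replicate numbers did not pair the mice (correlation of deviations 0.135 in ECs, -0.029 in pericytes and -0.015 in alveolar fibroblasts). With the replicate numbers as a block, 2369 genes were called in ECs, 1320 in general capillary ECs and 1982 in ciliated nuclei, and Nos3 in ciliated nuclei was at 2.54 (edgeR adjusted p = 0.000164).

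Of differences that did not pass, the sign turned with a mouse left out for Edn1 in ECs (-0.0083 to 1.09), Ece1 in venous ECs (-0.38 to 0.55) and ECs (-0.064 to 0.38), Nos3 in arterial ECs (-0.48 to 2.69) and ECs (-0.81 to 0.49), Gucy1a1 in pericytes (-0.12 to 0.44), Ptgis in mesothelial nuclei (-0.12 to 0.35), Ptgir in ECs (-0.80 to 1.16) and Prkg1 in ECs (-0.14 to 0.011). It also turned with free RNA subtracted for Ece1 in venous ECs (-0.023) and ECs (-0.020), Gucy1a1 (-0.089) and Gucy1b1 (-0.11) in pericytes and Ptgis in mesothelial nuclei (-0.12), and with no filter for Ece1 in venous ECs (-0.022). With the nearest class profile it turned for Nos3 in ECs (0.032), Gucy1a1 (-0.084) and Gucy1b1 (-0.13) in pericytes and Ptgis in mesothelial nuclei (-0.17), with at least 3000 UMIs for Gucy1a1 (-0.10) and Gucy1b1 (-0.027) in pericytes and Prkg1 in ECs (0.033), and with a tail of 0.001 for Nos3 in ECs (0.20). Ptgis in ECs was at 2.09 against droplets of 100 to 300 UMIs (adjusted p = 0.159), and Gucy1a1 in ECs at 0.083 against empty droplets with possible doublets kept. Without thinning, the differences in shares were 9.97 percentage points for Nos3 in ciliated nuclei, -1.74 for Nos3 in ECs (0.77 thinned), 4.70 for Gucy1a1 in ECs and -23.9 for Prkg1 in AT2 nuclei. Few nuclei of smooth muscle, and few UMIs of Ptgir, limit what could be read of them.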
